A study of Mus musculus with 3 samples.

Results

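*Klf2*, *Klf4*, *Nos3*, *Thbd*, *Piezo1*, *S1pr1* and *Edn1* are genes of endothelial cells that respond to, or sense, the shear stress of flowing blood, and their transcripts were followed here in single retinal cells of mice at postnatal day 6 (P6). The 7 genes were taken by symbol from the 33696 genes of the count tables, by a rule that uses no measured value, and all 7 were detected in endothelial-like cells (ECs) of every library. Their Ensembl identifiers are ENSMUSG00000055148 (*Klf2*), ENSMUSG00000003032 (*Klf4*), ENSMUSG00000028978 (*Nos3*), ENSMUSG00000074743 (*Thbd*), ENSMUSG00000014444 (*Piezo1*), ENSMUSG00000045092 (*S1pr1*) and ENSMUSG00000021367 (*Edn1*). Each of the 3 libraries came from a pool of mice of 1 genotype, enriched with beads against CD31 and CD11b, so there was 1 library per group and no replicate. The wild-type (WT) mice carried no deletion and were not littermates of the others. *Tspan12* knockout (*Tspan12* KO) mice lacked a co-receptor component of Norrin/β-catenin signaling in every cell. *Ctnnb1* conditional knockout (*Ctnnb1* cKO) mice carried floxed *Ctnnb1* and *Pdgfb*-iCreER, and tamoxifen was given daily from the first postnatal day, so that β-catenin was removed in cells that express *Pdgfb*. The methods describe that deletion in ECs, and name no tamoxifen for the other groups.

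Laminar shear stress is sensed at the endothelial surface by mechanically gated channels such as PIEZO1 and by junctional and G protein-coupled receptors such as S1PR1. A kinase cascade ending in MEF2 factors then switches on *KLF2* and *KLF4*, transcription factors that keep endothelium quiescent and raise *NOS3*, which encodes the nitric oxide synthase of endothelium, and *THBD*, the anticoagulant receptor thrombomodulin, while lowering *EDN1*, which encodes the vasoconstrictor peptide endothelin-1. *KLF2* and *KLF4* are also early response genes that can be induced while a tissue is dissociated, so microglia, which went through the same dissociation and beads, were read as a reference. Whether microglia were free of the deletions was not tested, and their *Pdgfb* and *Ctnnb1* levels are given below.

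The windows upstream of *Klf2* and *Edn1* are shown because the first carries the MEF2 element through which flow is known to act, and the second belongs to the member that differed most between libraries. Both are the 250 bases before the RefSeq start in GRCm38.p6, given on the gene's own strand, with matches to the searched motifs in capitals.
Klf2, chr8:72318812-72319061, + strand: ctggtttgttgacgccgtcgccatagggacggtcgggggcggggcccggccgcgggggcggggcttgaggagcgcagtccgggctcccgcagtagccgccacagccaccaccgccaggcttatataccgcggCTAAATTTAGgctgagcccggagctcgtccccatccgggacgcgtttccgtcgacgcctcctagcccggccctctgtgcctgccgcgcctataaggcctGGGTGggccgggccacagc
Edn1, chr13:42301226-42301475, + strand: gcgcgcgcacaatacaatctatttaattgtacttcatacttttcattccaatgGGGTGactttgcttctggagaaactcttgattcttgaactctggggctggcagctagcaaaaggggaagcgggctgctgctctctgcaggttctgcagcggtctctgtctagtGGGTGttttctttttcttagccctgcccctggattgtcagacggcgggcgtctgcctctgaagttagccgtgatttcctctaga
Of the 7 genes, 4 were matched to the RefSeq promoter table (*Klf2*, *Klf4*, *Piezo1* and *Edn1*). A MEF2 element, CACCC (the core of KLF binding elements) and the AP-1 elements TGACTCA and TGAGTCA were searched on both strands, and none of the matches overlapped a match to another motif. The *Klf2* window held 1 MEF2 match, CTAAATTTAG, which reads the same on both strands and begins 118 bases before the start, a motif found in 2.92% of 32851 windows of the same length. CACCC was found on the opposite strand once in *Klf2* (19 bases before the start), once in *Piezo1* (96 bases) and in *Edn1* at 197 and 84 bases, against 52.0% of all windows. The *Klf4* window held no match, and no AP-1 element lay in any of the 4 windows. These matches are letters in the reference and describe no measured binding.

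The libraries held 9951 WT, 14426 *Tspan12* KO and 9151 *Ctnnb1* cKO barcodes with a median of 4974, 3166 and 2790 unique molecular identifiers (UMIs, each marking 1 captured transcript), and pairs of libraries shared 21 to 37 barcode sequences. Clusters were named from marker genes, which gave 538 WT, 287 *Tspan12* KO and 2709 *Ctnnb1* cKO ECs, with all 10 endothelial markers (among them *Pecam1*, *Cdh5* and *Cldn5*) detected in each library. The ECs of the libraries fell into different clusters. Cluster 15 held 511 of the WT and 209 of the *Tspan12* KO ECs but 46 of the *Ctnnb1* cKO ECs, most of which were in cluster 5 (1788 cells, led by *Ifitm3*, *Cd74* and *Isg15*) or cluster 17 (562 cells, led by *Eln* and *Mgp*). Microglia-like cells (microglia) numbered 283, 368 and 2126, and 1836 of those of the *Ctnnb1* cKO lay in cluster 4, led by *Il1b*, *Ccl12* and *Ccl4*. WT ECs had a median depth of 15871.5 UMIs, those of the *Tspan12* KO 15174 and those of the *Ctnnb1* cKO 3359. The median mitochondrial share of barcodes was 2.31% in WT, 1.80% in the *Tspan12* KO and 0.374% in the *Ctnnb1* cKO. At a mitochondrial limit of 5%, 366 WT, 253 *Tspan12* KO and 2678 *Ctnnb1* cKO cells were named ECs. Microglial markers summed to 136 CPM (counts per 1000000 UMIs of the cells) in ECs of WT, 104 in the *Tspan12* KO and 571 in the *Ctnnb1* cKO, with all 8 detected. Genotype, batch, depth, mitochondrial share and this admixture cannot be told apart between single libraries. Of the targeted genes, *Tspan12* measured 95.8, 85.5 and 40.2 CPM and *Ctnnb1* 524, 612 and 444 CPM in ECs of the WT, *Tspan12* KO and *Ctnnb1* cKO libraries. Reads near the 3′ end can remain after such deletions, so these levels do not check the labels. Microglia carried *Pdgfb* at 172 CPM in WT and 202 CPM in the *Tspan12* KO, beside 207 CPM in WT ECs. *Ctnnb1* in microglia measured 179 CPM in WT and 121 CPM in the *Ctnnb1* cKO, a log2 ratio of −0.56 (−0.73 to −0.40). Microglia are thus not an undeleted control, and deletion in them was not tested.

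Levels below are UMIs summed over the ECs of a library, divided by all UMIs of those cells and given in CPM. Where 3 values follow each other they stand for WT, then *Tspan12* KO, then *Ctnnb1* cKO, and 2 ratios stand for *Tspan12* KO, then *Ctnnb1* cKO, each against WT. Intervals are exact 95% Poisson intervals for a level and exact conditional binomial intervals for a log2 ratio, and cover counting error only. A ratio of at least 2-fold in either direction was called, and no p-value can be given with 1 library per group.

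*Edn1* differed most between the libraries. The vasoconstrictor gene *Edn1* measured 29.4, 26.9 and 162 CPM in ECs. WT and *Tspan12* KO thus lay close together and the *Ctnnb1* cKO library stood apart. The log2 ratio of *Ctnnb1* cKO to WT was 2.46 (2.32 to 2.61), a 5.51-fold higher level, whereas that of *Tspan12* KO to WT was −0.13 (−0.39 to 0.12), an interval that includes no difference. Over the alternatives this second ratio ran from −0.65 in ECs with few handling-gene UMIs to 0.60 after thinning, so its direction depended on the setting. After each cell was thinned to 2000 UMIs, 5%, 7.31% and 20.3% of ECs had an *Edn1* UMI (26.4%, 26.1% and 28.0% before thinning). Thinning left out the ECs with fewer UMIs, 18 in WT, 27 in the *Tspan12* KO and 824 in the *Ctnnb1* cKO. Amacrine-like cells are neurons that should lack *Edn1* and whose UMIs measure free RNA. Their thinned share was 0%, 0.308% and 1.57%, at median depths of 5606.5, 3942 and 2117 UMIs. The 0 of 647 WT cells allow a share of up to 0.569%.

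The other members differed by less than 2-fold. The transcription factor gene *Klf2* measured 1085, 945 and 882 CPM in ECs, or −0.20 (−0.24 to −0.16) and −0.30 (−0.33 to −0.27) as log2 ratios. Its partner *Klf4* measured 273, 175 and 202 CPM, or log2 ratios of −0.64 (−0.74 to −0.55) and −0.43 (−0.50 to −0.36). Free RNA gave *Klf2* levels of 22.5, 10.2 and 95.3 CPM and *Klf4* levels of 6.87, 3.39 and 8.67 CPM in amacrine-like cells. In ECs both factors were highest in WT, and their order between the knockouts differed.

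Among the targets of these factors, *Nos3* measured 118, 84.0 and 98.5 CPM in ECs (log2 ratios −0.50 and −0.27). *Thbd* measured 29.95, 36.4 and 19.0 CPM, or log2 ratios of 0.28 (0.05 to 0.51) and −0.65 (−0.88 to −0.43). *Nos3* was thus lower in both knockout libraries, and *Thbd* was lower in the *Ctnnb1* cKO and higher in the *Tspan12* KO, the latter turning to −0.17 when each cell had equal weight and to −0.074 after thinning. With equal weight per cell and after thinning, the *Ctnnb1* cKO ratio of *Thbd* was −1.06 and −1.14, past 2-fold.

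Of the sensors, the channel gene *Piezo1* measured 91.4, 129 and 144 CPM in ECs, or log2 ratios of 0.50 (0.38 to 0.62) and 0.66 (0.56 to 0.76). *S1pr1*, the sphingosine-1-phosphate receptor that stabilises junctions under flow, measured 159, 175 and 219 CPM, or log2 ratios of 0.14 (0.03 to 0.24) and 0.46 (0.38 to 0.54). Both sensor genes were lowest in WT and highest in the *Ctnnb1* cKO.

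In *Tspan12* KO against WT ECs, 0 of the 7 members were up and 0 were down by 2-fold, where 2.11% of 12207 genes were up and 4.15% were down. In *Ctnnb1* cKO against WT ECs, 1 member (*Edn1*) was up and 0 were down, where 8.39% of 12809 genes were up and 12.4% were down. The median log2 ratio of the members was −0.13 in the *Tspan12* KO and −0.27 in the *Ctnnb1* cKO, beside 0.01 and −0.12 for all genes tested. In *Ctnnb1* cKO ECs 60.0%, 67.0% and 58.2% of genes tested had a higher ratio than *Klf2*, *Klf4* and *Nos3*, so these lay near the middle. For *Thbd*, *S1pr1*, *Piezo1* and *Edn1* the share was 76.8%, 20.9%, 14.7% and 1.79%. In *Tspan12* KO ECs it was 70.4%, 90.9% and 87.1% for *Klf2*, *Klf4* and *Nos3*. TMM scaling added 0.14 to every *Ctnnb1* cKO ratio in ECs and changed no member's direction.

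**Figure D1:**
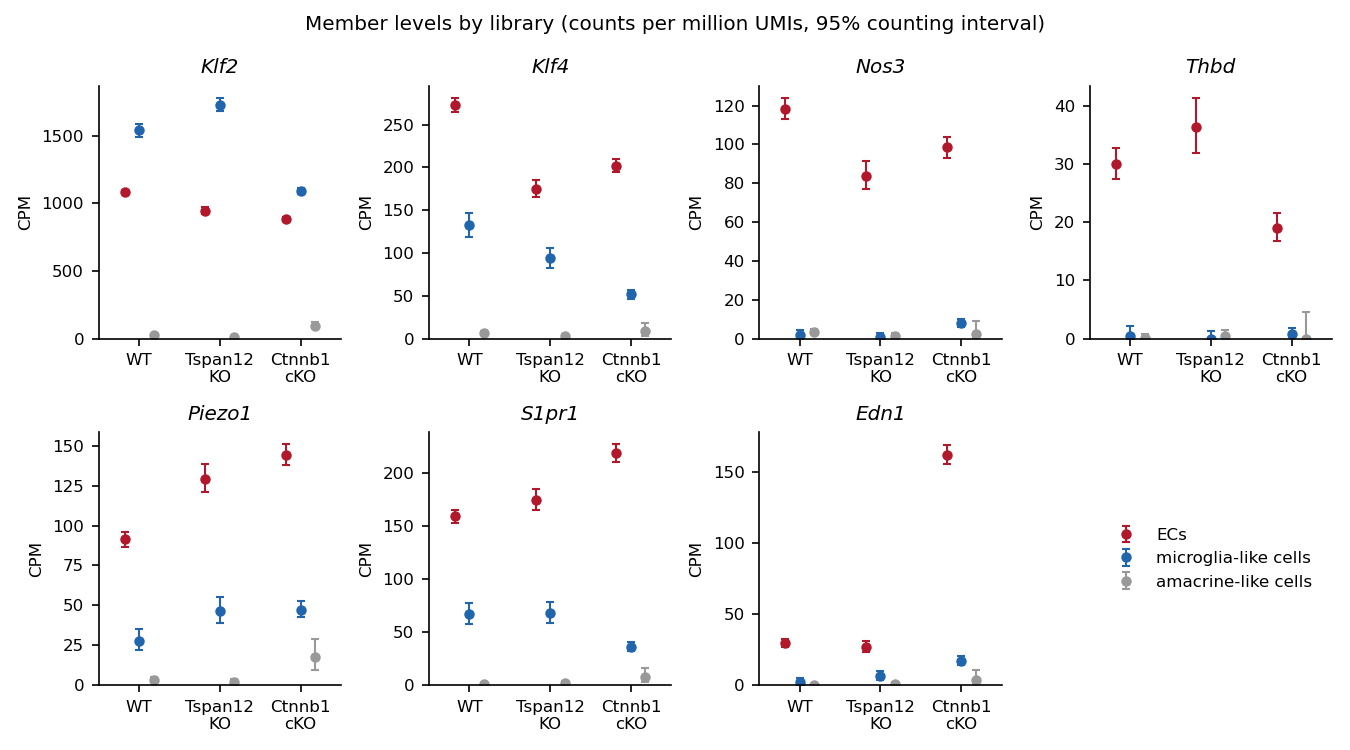
Level of each member (CPM of summed UMIs, linear axes from 0) in ECs, microglia-like and amacrine-like cells of the WT, *Tspan12* KO and *Ctnnb1* cKO libraries; points are single libraries and bars exact 95% counting intervals. *Edn1* in ECs stands at 162 CPM in the *Ctnnb1* cKO against 29.4 and 26.9 CPM, *Klf2* is higher in microglia-like cells than in ECs of each library, and *Thbd* is near 0 in microglia-like and amacrine-like cells.

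The *Edn1* UMIs of the *Ctnnb1* cKO were unevenly spread over its ECs. ECs were clustered again without the 7 members and without the handling genes among the variable genes. The 361 *Ctnnb1* cKO cells of subcluster 4, which was named arterial-like and led by the matrix genes *Mgp* and *Eln*, made up 13.3% of that library's ECs and 11.6% of their UMIs but held 48.6% of the *Edn1* UMIs (1014 of 2086). Their level was 677 CPM (636 to 720). Subcluster 6, the other arterial-like one, was led by *Dkk2* and *Bmx* and stood at 260 CPM (224 to 301) in 269 *Ctnnb1* cKO cells. Of 10 arterial markers, *Mgp* among them, 9 were raised in subcluster 6 but only 4 in subcluster 4. The remaining *Ctnnb1* cKO subclusters of at least 30 cells ranged from 49.7 CPM in cycling-like cells to 149 CPM. In WT and *Tspan12* KO, subclusters 3 (capillary-like), 7 (cycling-like), 9 (unnamed, led by photoreceptor genes) and 10 (unnamed, *Tspan12* KO, led by *Nkd1*) ranged from 4.66 to 48.2 CPM, all below the *Ctnnb1* cKO subclusters, although the highest of them (38.3 to 59.8) overlapped the lowest *Ctnnb1* cKO one (41.2 to 59.4).

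Subclusters were thus almost split by library. Leaving out subcluster 4 lowered the *Edn1* ratio of *Ctnnb1* cKO to WT to 1.68, which was still past 2-fold. Leaving out every subcluster with over 90% of its cells from 1 library left 34 *Ctnnb1* cKO ECs and an *Edn1* ratio of 0.56, below 2-fold, with *Klf4* at −1.19. Those cells held 6, 0 and 2 *Edn1* UMIs and 16, 5 and 1 *Klf4* UMIs in subclusters 3, 7 and 9. Both ratios thus rest on few counts, and no interval was computed for them.

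ECs were also sorted by markers alone: after thinning, a cell was put in the subtype with the most UMIs over its markers, if there were at least 3. This gate is a range and not a cell type. Some gate markers themselves differed in *Ctnnb1* cKO ECs. Of the tip markers, *Pdgfb* (1.18) and *Cxcr4* (1.01) were higher and *Apln* (−0.72) and *Esm1* (−0.97) lower. The venous marker *Vcam1* was at 1.48. A gate therefore need not hold like cells in each library. It held 26 WT, 13 *Tspan12* KO and 258 *Ctnnb1* cKO arterial cells (2, 2 and 69 of them near the cut), 295, 139 and 703 capillary cells, 23, 13 and 65 venous cells, 23, 23 and 158 tip cells and 81, 24 and 222 cycling cells, with 72, 48 and 479 in none. *Edn1* was higher in the *Ctnnb1* cKO than in WT in each of these 6 groups. In arterial-gated cells it measured 59.4, 35.4 and 465 CPM, a log2 ratio of 2.97 (2.49 to 3.48) for the last. In capillary-gated cells it measured 33.8, 30.3 and 122 CPM, and the ratio was 1.85 (1.64 to 2.07). The difference was smallest in tip-gated cells, at 68.5, 34.0 and 117 CPM and a ratio of 0.77 (0.31 to 1.24). In venous-gated cells 4 WT UMIs stood against 113 in the *Ctnnb1* cKO, a ratio of 5.74 (4.34 to 7.64).

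*Klf2* and *Klf4* differed between the same gates in every library. *Klf2* measured 2558, 2022 and 1849 CPM in arterial-gated cells of WT, *Tspan12* KO and *Ctnnb1* cKO and 372, 268 and 437 CPM in tip-gated cells, the sprouting cells at the vascular front. *Klf4* measured 636, 531 and 472 CPM in arterial-gated and 64.0, 28.0 and 104 CPM in tip-gated cells. Arterial-gated cells were the highest and tip-gated cells the lowest for both factors in each library, with intervals that did not overlap between these gates. The order of the gates between them was not the same. *Klf2* measured 1230 CPM in capillary-gated and 871 CPM in venous-gated WT cells, but 801 and 1042 CPM in those of the *Ctnnb1* cKO.

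Gate by gate, the *Ctnnb1* cKO ratio of *Klf2* ran from −0.62 (−0.68 to −0.56) in capillary-gated and −0.47 in arterial-gated cells to 0.23 in tip-gated and 0.26 in venous-gated cells. That of *Klf4* ran from −0.85 (−0.97 to −0.74) in capillary-gated cells to 0.70 (0.22 to 1.19) in tip-gated cells. The direction therefore differed between the gates for both factors. In *Tspan12* KO cells *Klf4* was lowest relative to WT in tip-gated cells, at −1.19 (−2.15 to −0.33) on 14 UMIs, and stood at −0.82 (−0.95 to −0.69) in capillary-gated cells.

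*Piezo1* was higher in the *Ctnnb1* cKO than in WT in all 6 groups, with log2 ratios from 0.42 in capillary-gated to 0.96 in tip-gated cells and intervals above 0. In *Tspan12* KO cells its ratio was above 0 in 5 groups (0.31 to 0.80) and −0.06 (−1.02 to 0.81) in arterial-gated cells. *Thbd* was past 2-fold in one place, capillary-gated *Ctnnb1* cKO cells, at 15.5 against 35.8 CPM and a ratio of −1.21 (−1.61 to −0.82). *Nos3* was lower in capillary-gated cells of both knockouts (−0.63 and −0.54) and in cells of no subtype (−0.45 and −0.37), and its intervals included 0 in arterial-, venous-, tip- and cycling-gated cells. *S1pr1* in the *Ctnnb1* cKO had intervals above 0 in venous-gated cells (0.94), in capillary-gated cells (0.38) and in cells of no subtype (0.50).

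**Figure D2:**
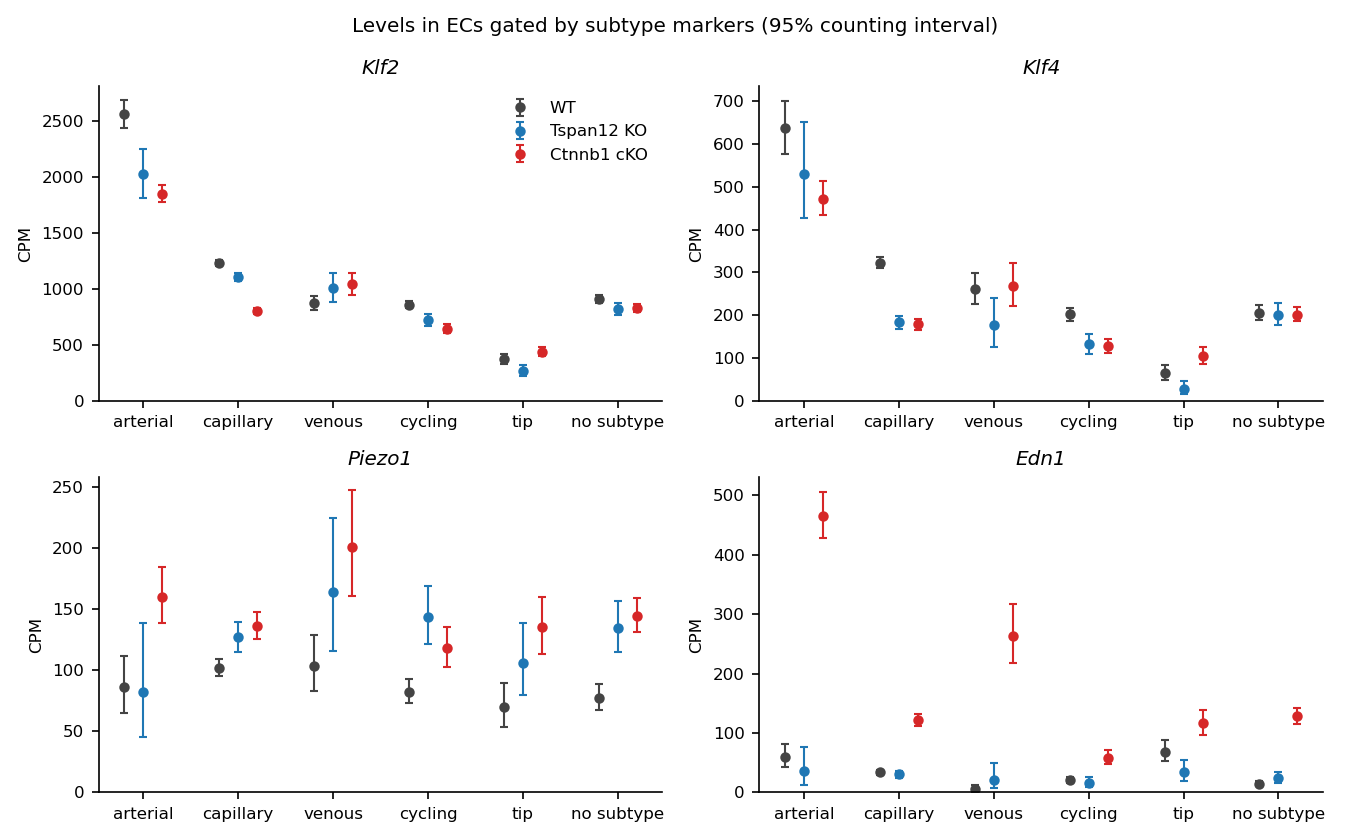
CPM of *Klf2*, *Klf4*, *Piezo1* and *Edn1* (linear axes from 0) in ECs gated by subtype markers, for each library; points are single libraries and bars exact 95% counting intervals. *Klf2* and *Klf4* are highest in arterial-gated and lowest in tip-gated cells of every library, and *Edn1* reaches 465 CPM in arterial-gated *Ctnnb1* cKO cells.

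Microglia carried *Klf2* at 1539, 1728 and 1089 CPM, above the ECs of the same library in each case. The *Tspan12* KO ratio in microglia was 0.17 (0.11 to 0.23), opposite to ECs, and the *Ctnnb1* cKO ratio was −0.50 (−0.55 to −0.44). *Klf4* measured 132, 93.6 and 51.6 CPM in microglia, with ratios of −0.50 and −1.36. *Klf4* was therefore lower in both knockouts in both cell types.

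The difference between the cell types (EC minus microglia, log2) was computed for each member. For *Klf2* it was −0.37 (−0.44 to −0.29) in the *Tspan12* KO and 0.20 (0.13 to 0.26) in the *Ctnnb1* cKO. For *Klf4* it was −0.14 (−0.40 to 0.12) and 0.93 (0.70 to 1.15). The interval for *Klf4* in the *Tspan12* KO included 0, and in the *Ctnnb1* cKO microglia were further below WT than ECs were for both factors.

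*Piezo1* was higher in both knockouts in microglia too, at 27.8, 46.4 and 47.3 CPM (ratios 0.74 and 0.77). Its differences between the cell types were −0.24 (−0.70 to 0.21) and −0.11 (−0.51 to 0.27), both including 0. *S1pr1* in microglia measured 66.9, 68.0 and 35.9 CPM, and its *Ctnnb1* cKO ratio of −0.90 lay below 0 where that in ECs lay above, a difference of 1.36 (1.07 to 1.65). Of these sensors, *S1pr1* in the *Ctnnb1* cKO had opposite signs in ECs and microglia.

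The remaining members were sparse in microglia. *Nos3* gave 5, 2 and 58 UMIs (1.90, 0.743 and 7.79 CPM), *Edn1* gave 6, 17 and 127 UMIs (2.28, 6.32 and 17.1 CPM) and *Thbd* gave 1, 0 and 6 UMIs. Endothelial markers in the same microglia summed to 180, 91.8 and 408 CPM, with all 10 detected, beside 9592, 8839 and 8256 CPM in ECs. They too were highest in the *Ctnnb1* cKO, and their part in the microglial *Nos3* and *Edn1* values was not tested. With at least 50 UMIs required, 4 members could be compared in *Tspan12* KO microglia, of which 0 were up and 0 down by 2-fold, beside 1.94% and 1.57% of 8798 genes. In *Ctnnb1* cKO microglia 6 could be compared, of which 2 were up (*Nos3* and *Edn1*) and 1 down (*Klf4*), beside 9.49% and 7.44% of 10463 genes.

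Mural-like cells, which surround vessels, also held the members, with *Edn1* at 25.0, 14.4 and 260 CPM and *Nos3* at 85.0, 39.0 and 69.9 CPM. Their endothelial markers summed to 6463, 5796 and 5529 CPM, so these levels cannot be told apart from RNA of ECs.

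**Figure D3:**
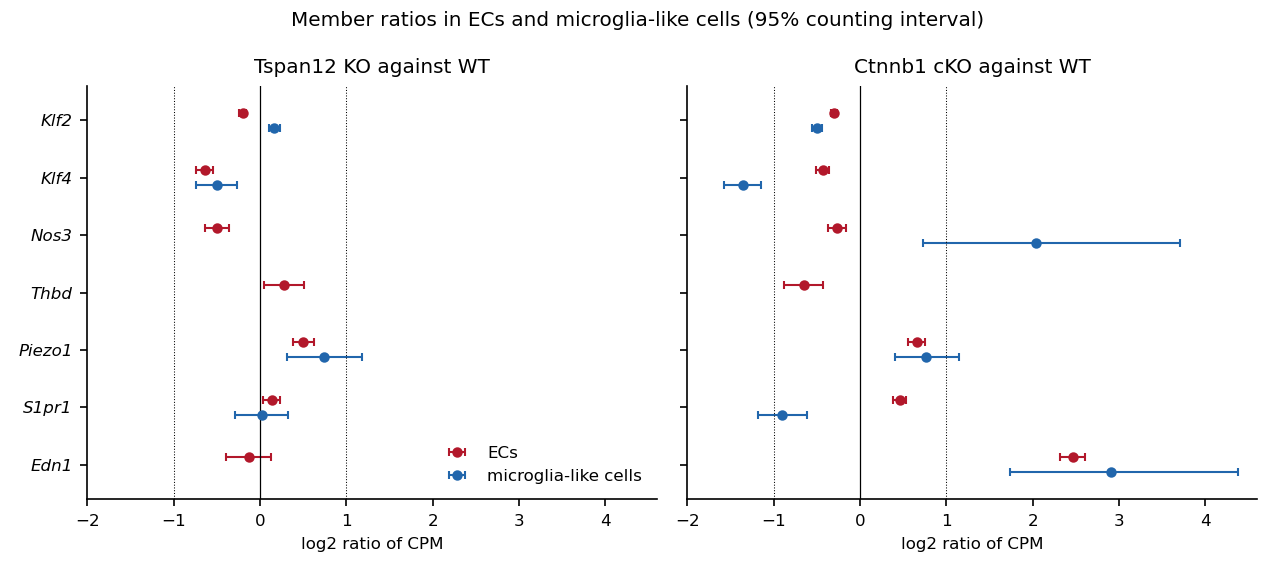
Log2 ratio of CPM of each knockout library to WT for members with at least 50 UMIs over both libraries, in ECs and in microglia-like cells; bars are exact 95% counting intervals and dotted lines mark 2-fold. *Klf4* lies left of 0 and *Piezo1* right of 0 in both cell types and both comparisons, and *Edn1* in ECs lies at 2.46 in the *Ctnnb1* cKO.

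Handling was read from 18 immediate early and stress genes such as *Fos*, *Jun*, *Egr1* and *Atf3*, which dissociation is known to induce. They summed to 7853, 5950 and 7710 CPM in ECs, and to 24072, 19394 and 15144 CPM in microglia. Their median log2 ratio was −0.57 and −0.11 in ECs, the second turning to 0.036 under TMM scaling, and −0.41 and −0.67 in microglia. The handling genes were therefore lower in *Tspan12* KO than in WT in both cell types, and lower in *Ctnnb1* cKO microglia. *Klf4* was lower in these cells and also in *Ctnnb1* cKO ECs (−0.43). There the handling median of −0.11 stood beside −0.12 for all genes, and 7 of 16 handling genes were above 0.

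Within each library, cells above the library's own median of handling UMIs (10, 7 and 13 UMIs in thinned ECs of WT, *Tspan12* KO and *Ctnnb1* cKO) were set against the rest. *Klf2* in ECs measured 667 CPM in low-handling and 1341 CPM in high-handling WT cells, and was 1.01, 1.28 and 1.08 higher on the log2 scale in the 3 libraries. *Klf4* was 1.69, 1.34 and 1.27 higher. In microglia the same differences were 0.94, 1.19 and 0.74 for *Klf2* and 1.43, 1.03 and 1.16 for *Klf4*, so both factors followed the handling genes in all 6 sets of cells.

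*Nos3* (0.31, 0.15 and 0.10), *Piezo1* (0.24, 0.06 and 0.36) and *S1pr1* (0.25, 0.27 and 0.37) differed less between high- and low-handling ECs. *Thbd* was higher by 0.40, 0.24 and 0.82. *Edn1* differed between the libraries here: it was 0.02 (−0.25 to 0.30) higher in high-handling WT ECs, 0.85 (0.37 to 1.35) higher in those of the *Tspan12* KO and 1.78 (1.63 to 1.95) higher in those of the *Ctnnb1* cKO, where it measured 69.8 CPM in low- and 240 CPM in high-handling cells.

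In low-handling cells alone, the *Edn1* ratio of *Ctnnb1* cKO to WT in ECs was 1.26, lower than in all ECs and still past 2-fold. That of *Klf4* was 0.063 in the *Ctnnb1* cKO and −0.29 in the *Tspan12* KO. The cut was each library's own median (10, 7 and 13 UMIs), so these cells were not matched for handling between libraries. The part of handling in these ratios was not tested. *Klf2* stayed below WT in low-handling ECs, at −0.25 in the *Ctnnb1* cKO and −0.35 in the *Tspan12* KO.

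**Figure D4:**
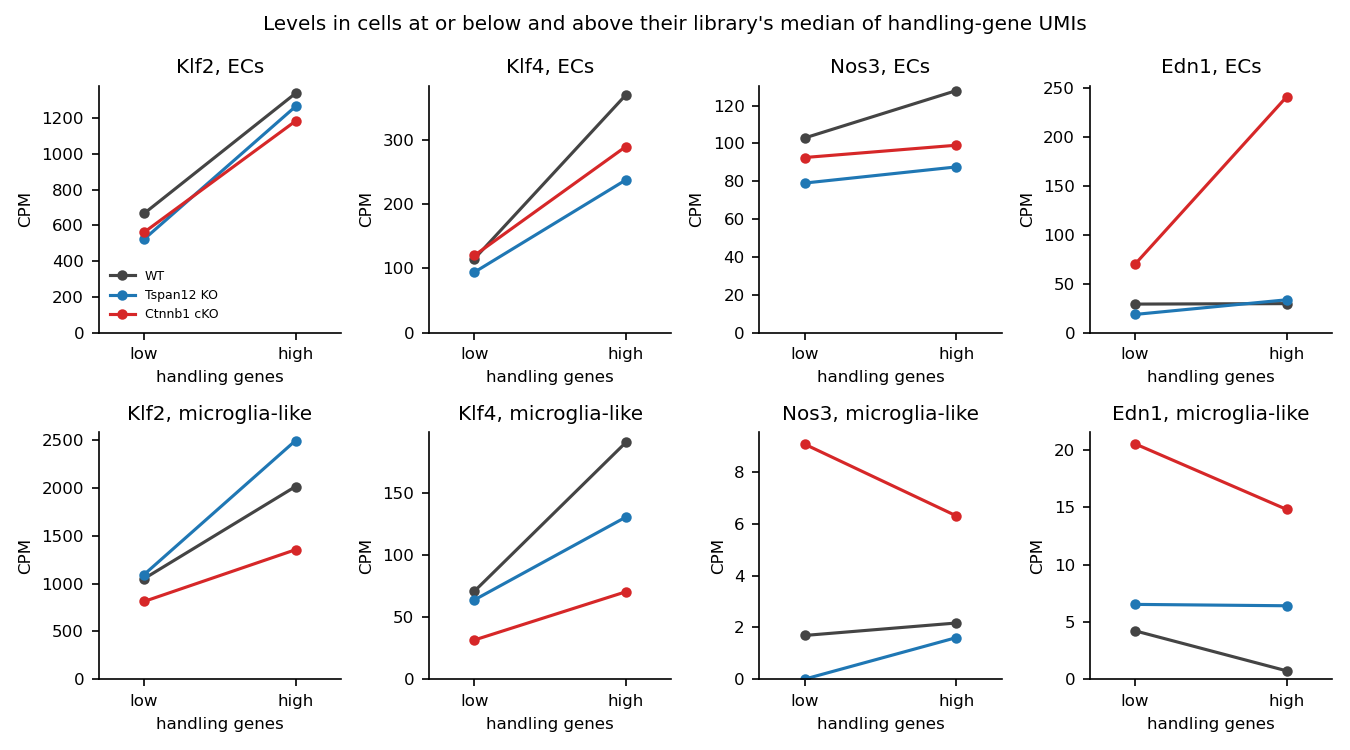
CPM (linear axes from 0) of *Klf2*, *Klf4*, *Nos3* and *Edn1* in ECs (top) and microglia-like cells (bottom) at or below (low) and above (high) their own library's median of handling-gene UMIs; each line is 1 library. *Klf2* and *Klf4* are higher in high-handling cells throughout, whereas *Edn1* in ECs climbs from 69.8 to 240 CPM in the *Ctnnb1* cKO and is level in WT.

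Cells that held one member were compared for the others at 2000 UMIs. *Klf4* was found in 35.9% of WT ECs with a *Klf2* UMI and 15.1% of those without, in 33.9% and 9.64% of *Tspan12* KO ECs, and in 33.4% and 14.3% of *Ctnnb1* cKO ECs, with exact binomial intervals that did not overlap within any library. *Edn1* was found in 23.0% (20.7 to 25.4) of *Ctnnb1* cKO ECs with a *Klf2* UMI and 14.8% (12.1 to 17.8) of those without, whereas in WT (5.65% and 3.61%) and *Tspan12* KO (6.21% and 9.64%) these intervals overlapped. For *Nos3*, *Thbd*, *Piezo1* and *S1pr1* the intervals overlapped in each library.

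Across 13 sums of subcluster and library with at least 30 cells, the level of *Klf2* (log2 of CPM plus 5) correlated with that of *Klf4* at a Pearson r of 0.78, and the r of *Klf4* was 0.85 with *Nos3* and 0.84 with *S1pr1*. *Edn1* had an r of 0.74 with *Piezo1*, 0.65 with *S1pr1*, 0.62 with *Klf4* and 0.59 with *Klf2*. Among 10315 genes, those closest to *Klf2* were *Rb1* (0.94), *Slc6a6* (0.93) and *Pnpla8* (0.92), and those closest to *Klf4* were *App*, *Slc35b3* and *Oga* (0.95 to 0.96). The closest to *Edn1* were *Tmcc3* (0.98), *Gm56730* and *Armc5*, to *Nos3* *Usp6nl*, *Chd3* and *Fbxw7*, to *Thbd* *Kctd12*, *Kdm6a* and *Atp8b2*, to *Piezo1* *Klhl3*, *Add1* and *Tbc1d20*, and to *S1pr1* *Cdyl*, *Elk4* and *Mvp*. The WT and *Tspan12* KO sums of subcluster 9, led by photoreceptor genes, were the lowest points for *Klf4* (70.0 and 42.8 CPM), *Nos3* (46.6 and 37.4) and *S1pr1* (72.3 and 42.8). No r was computed without them. The points share libraries and depth, and these correlations are a description.

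Other genes of the pathway were counted by role. Of all genes tested in ECs, 2.11% were up and 4.15% down in the *Tspan12* KO, and 8.39% up and 12.4% down in the *Ctnnb1* cKO. Of the flow sensors (channels, junction proteins and G proteins), 11 could be compared in *Tspan12* KO and 12 in *Ctnnb1* cKO ECs. In the *Tspan12* KO 0 were past 2-fold and the median log2 ratio was 0.34, with *Gna11* (0.69) and *Cdh5* (0.66), the gene of VE-cadherin, furthest up. In the *Ctnnb1* cKO 0 were past 2-fold upward. Of the 14 genes of the cascade upstream of *Klf2* and *Klf4*, 1 was up in the *Tspan12* KO (the histone deacetylase gene *Hdac5*, 1.17) and 0 were down. In the *Ctnnb1* cKO 0 were up and 3 were down, the small GTPase gene *Rap1a* (−1.32), *Pdcd10* of the CCM complex (−1.12) and *Mef2a* (−1.01), beside 12.4% of all genes tested in ECs. In *Ctnnb1* cKO microglia the same genes were at −1.31, −1.04 and −0.79.

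Genes known to be induced by flow were mixed. Of 16 compared in the *Tspan12* KO, 1 was up and 2 were down, beside 2.11% and 4.15% of all genes. Of 15 in the *Ctnnb1* cKO, 4 were up and 1 was down, beside 8.39% and 12.4% of all genes. The water channel gene *Aqp1* measured 3.97, 83.4 and 208 CPM in ECs, log2 ratios of 4.39 and 5.71. The gap junction gene *Gja5* was at −1.78 in the *Tspan12* KO, on 8 UMIs, and at 1.39 in the *Ctnnb1* cKO. *Adamts1* was at −1.32 in the *Tspan12* KO. In the *Ctnnb1* cKO *Ptgs1* was at 1.67 and *Ptgis*, the prostacyclin synthase gene, at −1.19, and *Smad6* (1.12), named after its value was seen, completed the 4.

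Genes known to be lowered by flow were mostly higher in *Ctnnb1* cKO ECs. There 8 of 11 were up and 0 were down, beside 8.39% and 12.4% of all genes. Their median log2 ratio was 1.18, beside −0.12 for all genes. In *Ctnnb1* cKO microglia 6 of these genes could be compared, of which 4 were up and 0 down, beside 9.49% and 7.44% of all genes. All 6 were above 0 and the median was 1.09, beside 0.055 for all genes, so the list was higher in both cell types. Flow-induced genes (0.92) and flow sensors (0.58) also had medians above 0 in these microglia, while nitric oxide (−0.04) and handling genes (−0.67) did not. Endothelial markers summed to 180 CPM in WT and 408 CPM in *Ctnnb1* cKO microglia, and the part of EC RNA was not tested. *Ccl2*, a chemokine gene, measured 1.86 CPM in WT and 29.5 CPM in *Ctnnb1* cKO ECs (3.99), beside 834 and 1204 CPM in microglia, and the part of microglial RNA in it was not tested. *Txnip* measured 32.1 and 139 CPM (2.11), the YAP target *Ccn2* 33.4 and 123 CPM (1.89) and the adhesion molecule gene *Vcam1* 8.25 and 23.1 CPM (1.48). In microglia *Txnip* was at 1.06. The 3 genes of the list below 0 in *Ctnnb1* cKO ECs were *Apln*, *Esm1* and *Angpt2* (−0.72, −0.97 and −0.17), whereas *Pdgfb* and *Cxcr4* were at 1.18 and 1.01. All 5 are genes that tip cells are known to express, and they are named after their values were seen. In the *Tspan12* KO 1 of 10 was up (*Cxcr4*, 1.07) and 1 was down (*Ccn1*, −1.02).

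Of the endothelin axis beside *Edn1*, 2 of 7 genes could be compared. *Ednrb*, which encodes an endothelin receptor, measured 14.1, 46.2 and 44.5 CPM in ECs (1.71 and 1.65), and *Ece1*, which encodes the enzyme that matures endothelin, was at 0.68 and 0.12. *Ednrb* was thus higher in both knockouts, whereas *Edn1* was higher in the *Ctnnb1* cKO. Of 9 nitric oxide genes 0 were past 2-fold in either knockout. Of 8 genes of the sphingosine-1-phosphate axis 0 were past 2-fold in the *Tspan12* KO. In the *Ctnnb1* cKO *Plpp3*, which encodes a lipid phosphatase, was up (1.15) and *Gnai3* down (−1.30), beside 8.39% and 12.4% of all genes. Of the coagulation genes named here, *Plat*, which encodes tissue plasminogen activator, was down in both knockouts (−1.41 and −1.23), and *Tfpi* was down in the *Ctnnb1* cKO (−1.09).

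**Figure D5:**
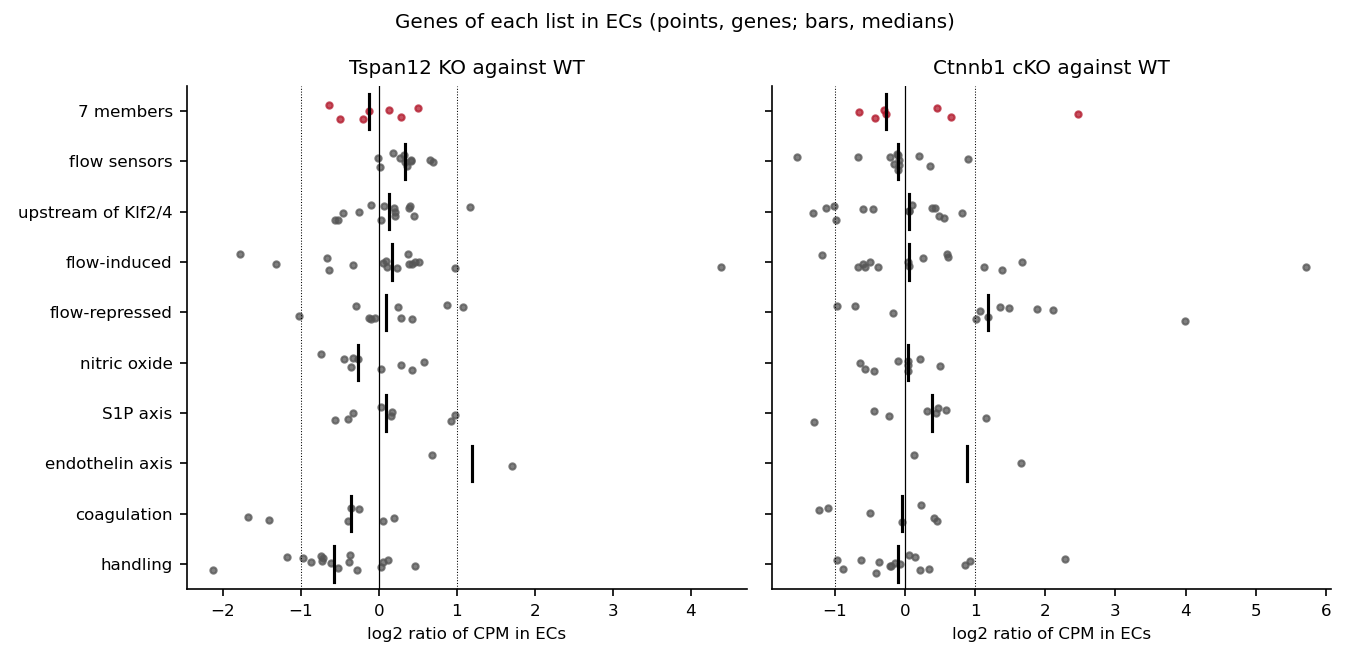
Log2 ratio of CPM in ECs for each gene of the members, the role lists and the handling genes, *Tspan12* KO (left) and *Ctnnb1* cKO (right) against WT; points are genes with at least 50 UMIs, bars are list medians and dotted lines mark 2-fold. The flow-repressed list has its median at 1.18 in the *Ctnnb1* cKO, and *Aqp1* is the far right point of the flow-induced list.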

How the data were processed

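Retinal cells of P6 mice were profiled with 10x 3′ chemistry in 3 libraries, 1 per genotype, and the deposited matrices hold raw UMI counts per gene and barcode that the authors made with Cell Ranger (8.0.1 in the matrix header, a different version in the methods). The labels and methods name different genome builds, so the build of the counts was not settled, and the only coordinates given are those of the RefSeq promoter table. No barcode below 500 UMIs was present. Barcodes with at least 250 genes and at most 15% mitochondrial UMIs were kept, and the highest Scrublet scores were removed at 0.8% per 1000 cells (760, 1656 and 665 barcodes), because its automatic cut marked 0, 1 and 343. The 8989 WT, 12732 *Tspan12* KO and 8451 *Ctnnb1* cKO cells were clustered together in scanpy 1.11.5 (2000 variable genes without the members and handling genes, 30 components, 20 neighbours, Leiden resolution 1, no integration). A cluster was named from at least 3 raised markers, and 21.9% to 41.5% of the cells of a library stayed unnamed.

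UMIs were summed per class and library. Genes with at least 50 UMIs over both libraries were compared, and the ratio functions were tested on simulated data. TMM factors came from edgeR 4.0.16, and no count test was run since each group is 1 library. Depth was 37008362 to 137114957 UMIs per library. Named were all 7 members, of each role list at most 4 genes with the largest absolute ratio, and for each member the 3 genes of highest r. Some list genes that this rule would name are not reported here. The members and lists were chosen with earlier results of these data known. Alternatives covered scaling, pseudocount (5 CPM), filters, doublets, class definition, weighting, thinning and the ECs used.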

Additional observations from a re-analysis of the deposited data

Results flagged for a closer look

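Members whose log2 ratio to WT had opposite signs in ECs and microglia, with both counting intervals away from 0, were set apart. *Klf2* in the *Tspan12* KO was at −0.20 in ECs and 0.17 in microglia. *Nos3* in the *Ctnnb1* cKO was at −0.27 in ECs and 2.04 in microglia, the latter on 5 WT and 58 *Ctnnb1* cKO UMIs, beside endothelial markers at 180 and 408 CPM in the same microglia. *S1pr1* in the *Ctnnb1* cKO was at 0.46 in ECs and −0.90 in microglia. With 1 library per genotype, none of these differences was tested over replicates.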

How the results depend on the processing

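Each group is 1 library, so no replicate was left out, and all intervals cover counting error only. No paired analysis was possible because each group has 1 sample. Shallow *Ctnnb1* cKO cells limit what can be read of *Thbd* and of microglial *Nos3* and *Edn1*. Alternatives that leave out the *Mgp*-led or the photoreceptor-led subcluster were chosen after seeing the data. The cause of the shifts below was not tested.

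The call of *Edn1* in *Ctnnb1* cKO ECs was kept in each alternative but one. Without one-library subclusters 0 members were up and 1 was down, on 34 *Ctnnb1* cKO ECs with few UMIs of either gene. With equal weight per cell and after thinning 1 member was down (*Thbd*) in each case. Of single members, *Thbd* in the *Tspan12* KO turned to −0.17 with equal weight and −0.074 after thinning, *Edn1* in the *Tspan12* KO (−0.13) ran from −0.65 in low-handling cells to 0.60 after thinning, and *Klf4* in the *Ctnnb1* cKO turned to 0.063 in low-handling ECs. The members' median in *Ctnnb1* cKO ECs (−0.27) moved to 0.063 in low-handling cells, −0.12 under TMM and −0.43 without cycling subclusters. In *Tspan12* KO ECs (−0.13) it moved to −0.29 in low-handling cells, −0.26 with no doublets removed, −0.43 without one-library subclusters and, with its sign turned, 0.089 without cycling subclusters.

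The handling median in *Ctnnb1* cKO ECs (−0.11) was 0.036 under TMM, 0.090 in low-handling cells, 0.081 with equal weight, 0.18 after thinning, −0.038 with the marker gate, −0.16 with each library clustered on its own, −0.18 at a mitochondrial limit of 5%, −0.24 without cycling, −0.88 without one-library and −0.22 without the *Mgp*-led subclusters. In *Tspan12* KO ECs (−0.57) it was −0.74 in low-handling cells, −0.46 with the gate, −0.41 with equal weight, −0.45 after thinning, −0.33 without cycling and −1.26 without one-library subclusters. In *Ctnnb1* cKO microglia (−0.67) it was −0.62 under TMM, −0.62 in low-handling cells, −0.61 with the gate, −0.23 with equal weight, −0.46 after thinning, −0.75 at the 5% limit and −0.74 with no doublets removed. In *Tspan12* KO microglia (−0.41) it was −0.31 with each library on its own, −0.23 in low-handling cells, −0.19 with equal weight, −0.21 after thinning and −0.53 at the 5% limit.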
